A study of Mus musculus with 12 samples.

Results

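The genes described here load peptides onto MHC class I molecules, or trim those peptides, or drive class I transcription. They are *Tap1*, *Tap2*, *Tapbp*, *Tapbpl*, *Erap1*, *Calr*, *Canx*, *Pdia3* and *Nlrc5*. They were picked by gene name, with earlier results of these data known, and all 9 were found among the 23022 listed genes. The study asked how loss of the RNA-binding proteins MBNL1 and MBNL2 alters melanoma cells and their response to interferon gamma (IFNγ). It used B16-F10, a mouse melanoma line, in which 3 RNA-seq libraries were made for each of 4 conditions, 12 in all.

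The conditions were NTC cells and double knock out (DKO) cells, in which *Mbnl1* and *Mbnl2* were targeted, each unstimulated or IFNγ stimulated. The sample labels call NTC No template control, whereas the paper describes it as a non-targeting control guide. All groups came from a single Cas9-expressing clone picked for its editing and carried a lentiviral guide vector. The DKO cells received a paired guide against both genes, and were a mixed edited population in which loss of the proteins was not complete. The treated cells received IFNγ for a day before RNA isolation. Labels do not say whether libraries of a group came from separate cultures, so the p-values below measure only the spread between these libraries, which may be technical.

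The values are TPM, the abundance of a gene's transcripts as a share of its library, corrected for transcript length. TPM allows levels to be set side by side between genes, but keeps no read depth, so counting error is unknown. RNA of the targeted genes was lower in DKO cells by 0.41 (*Mbnl1*) and 0.20 (*Mbnl2*) on the log2 scale without IFNγ. Both genes were still measured in every DKO library, and TPM do not separate transcripts of edited from those of unedited alleles. All 7 melanocyte markers were present. They summed to 11100 to 12400 TPM in each DKO library and to 16600 to 18600 TPM in each NTC library, and the part of this in the results below was not tested. Of the 6 leukocyte markers 5 were listed, with a sum of at most 1.33 TPM in any library, and *Ptprc*, *Cd3e* and *Cd52* were at 0 in all 12 libraries.

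Peptides made by the proteasome are carried from the cytosol into the endoplasmic reticulum (ER) by TAP, a pump built from the products of *Tap1* and *Tap2*. In the ER, tapasin (*Tapbp*) bridges the pump to a newly made class I molecule, together with calreticulin (*Calr*) and the disulfide isomerase ERp57 (*Pdia3*). Calnexin (*Canx*) helps fold the heavy chain before that step, TAPBPR (*Tapbpl*) edits the bound peptide outside the complex, and ERAP1 cuts peptides to a fitting length. NLRC5 is a nuclear protein, itself inducible by IFNγ, that switches on the promoters of class I genes and of several of their partners.

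Of the 9 genes, 6 have a promoter window in the RefSeq table used here, and *Tap2*, *Tapbpl* and *Nlrc5* have none. The window runs from 250 bases before the RefSeq start to 20 bases from the start on, where the first transcribed base is counted as 1. Stretches of 4 windows are printed, which set *Tap1* and *Erap1*, among the genes with a large IFNγ response, beside the abundant chaperones, *Calr* and *Canx*. All run 5′ to 3′ on the strand of the gene in GRCm38.p6. For *Tap1* (chr17:34187458-34187487, plus strand) capitals mark TGACG, the core of the X2 box that is one part of class I promoters. For *Erap1* (chr13:74639839-74639868, plus strand) they mark a match, read on the other strand, to GAAA, any 2 bases and GAAA, the core of the interferon-stimulated response element. For *Calr* (chr8:84846935-84847181, minus strand) and *Canx* (chr11:50325674-50325923, minus strand) they mark both ends of the ER stress element, which is CCAAT, any 9 bases and CCACG, on the other strand in *Calr*.
Tap1: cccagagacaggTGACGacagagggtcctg
Erap1: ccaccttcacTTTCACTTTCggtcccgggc
Calr: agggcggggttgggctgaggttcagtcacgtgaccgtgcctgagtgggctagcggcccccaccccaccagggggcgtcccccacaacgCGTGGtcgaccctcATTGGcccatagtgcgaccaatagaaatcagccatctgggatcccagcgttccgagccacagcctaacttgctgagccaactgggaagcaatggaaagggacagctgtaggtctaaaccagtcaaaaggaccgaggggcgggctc
Canx: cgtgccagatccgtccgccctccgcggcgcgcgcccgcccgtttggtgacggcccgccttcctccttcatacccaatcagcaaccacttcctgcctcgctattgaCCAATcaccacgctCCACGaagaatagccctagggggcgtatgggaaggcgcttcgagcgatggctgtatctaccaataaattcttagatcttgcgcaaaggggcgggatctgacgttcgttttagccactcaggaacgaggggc

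The *Erap1* match spans bases −4 to 6, so that it lies across the RefSeq start. Of all 32851 RefSeq windows of the same 270 bases, searched on both strands, 3.21% hold the interferon-stimulated core and 19.4% hold TGACG. The ER stress element, found in 0.116% of the windows, lies at −162 to −144 in *Calr* and at −145 to −127 in *Canx*; its first letters are also a CCAAT box, which 35.4% of windows hold. TGACG was also present in the *Pdia3* window and in that of *Canx*, at −204 to −200 and −34 to −30, in small letters above. The gamma-activated site TTCNNNGAA, a response element of IFNγ-induced genes, is in 7.58% of windows and was in none of the 6. *Tapbp*, which also had a large IFNγ response, held only CCAAT and the GC box GGGCGG, the latter in 34.1% of windows. A match is a run of letters, not evidence of binding, and its absence covers these 270 bases only. Whole windows of *Tap1*, *Tapbp*, *Erap1* and *Pdia3* lie in exons of the GENCODE annotation and are not printed; the whole *Tap1* window is in an exon of its neighbour *Psmb9* or of *Tap1* itself.

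Levels differed between the genes over several orders of magnitude, and by role. In untreated NTC cells the ER chaperones were the most abundant, with a mean of 677 TPM for *Calr*, 419 TPM for *Pdia3* and 411 TPM for *Canx*. The class I specific genes followed, from 7.78 TPM for *Tapbp* through 3.36 for *Erap1*, 2.29 for *Tapbpl*, 1.06 for *Tap2* and 0.746 TPM for *Tap1*, to *Nlrc5*, which was at 0, 0.147 and 0.0927 TPM. Only *Pdia3* and *Canx* overlapped their neighbour in this order. With IFNγ, in NTC cells *Tap1* passed above *Tap2* and *Tapbpl*, and *Nlrc5* passed above *Tap2*. The order of *Calr*, *Pdia3*, *Canx*, *Tapbp* and *Erap1* was kept there. In DKO cells *Canx* ranked above *Pdia3* in both states, with untreated means of 405 and 394 TPM and no overlap between them. In treated NTC cells *Nlrc5* and *Tapbpl* overlapped, in untreated DKO cells *Tap1* and *Tap2*, and in treated DKO cells *Canx* and *Pdia3*.

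**Figure D1:**
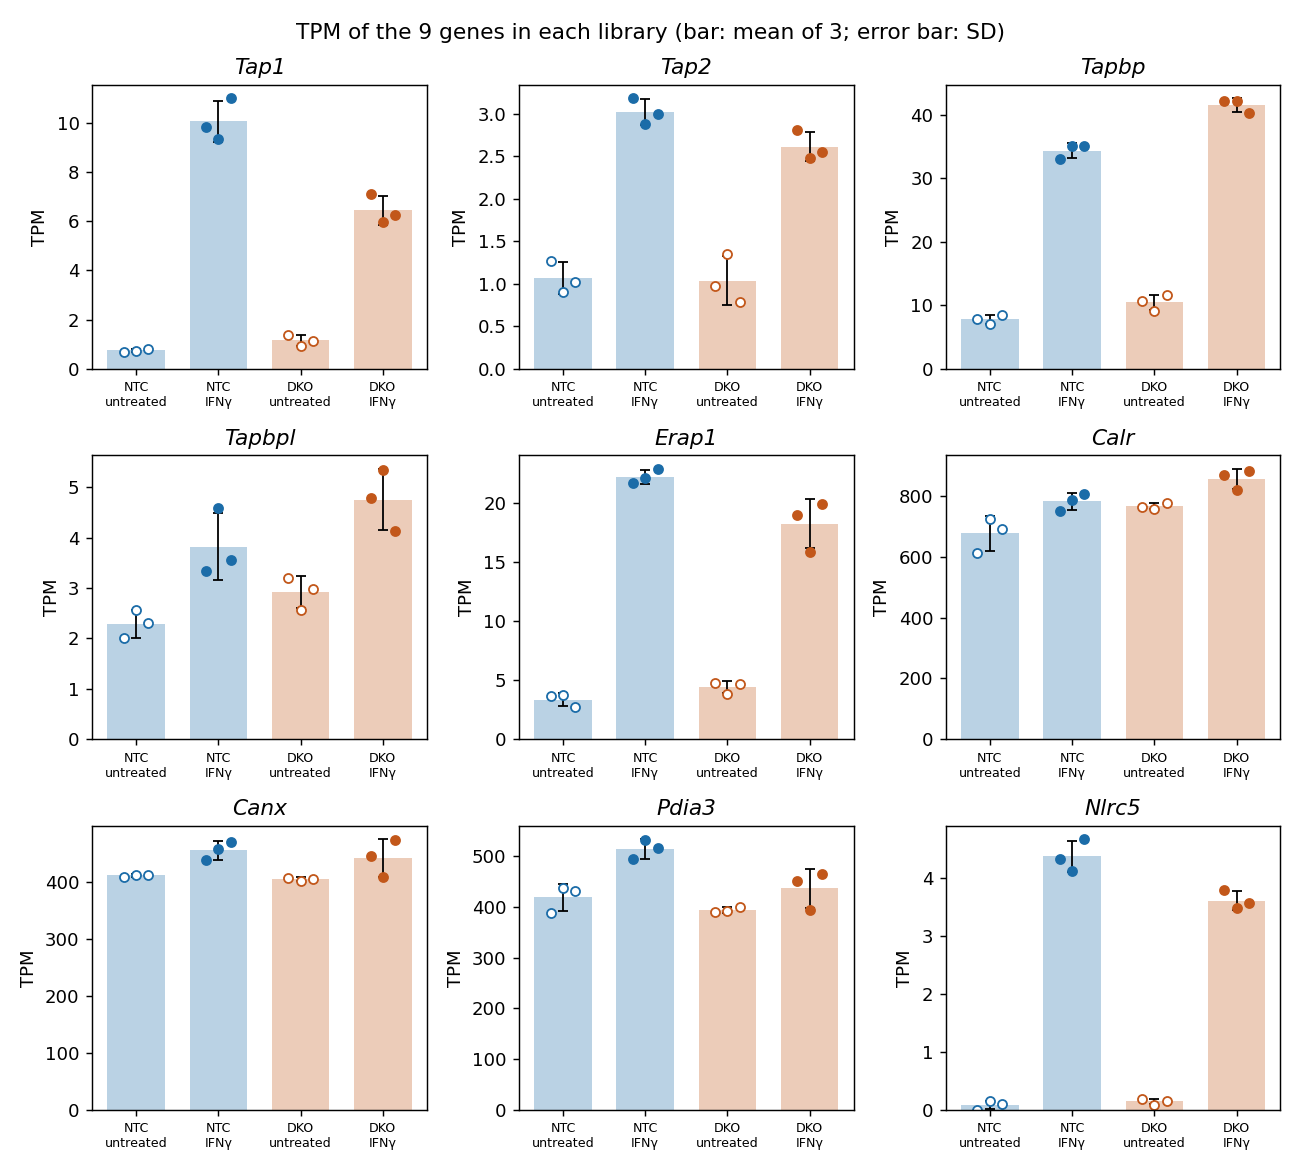
TPM of each gene (vertical axis, from 0) in NTC cells (blue) and DKO cells (orange), untreated (open points) and with IFNγ (filled points); each point is 1 library, bars are means of 3 and error bars are SD. *Tap1* reaches 9.35 to 11 TPM in treated NTC libraries but 5.96 to 7.11 TPM in treated DKO libraries, while *Tapbp* is higher in treated DKO libraries, and *Calr*, *Canx* and *Pdia3* stay within a narrow range.

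*Tap1* encodes one subunit of the peptide pump. Its level was 0.695, 0.737 and 0.806 TPM in untreated NTC libraries and 9.85, 9.35 and 11 TPM with IFNγ, 13.5 times the untreated mean. In DKO cells it went from 1.37, 0.942 and 1.15 TPM to 7.11, 5.96 and 6.26 TPM, 5.58 times. Every untreated DKO library was thus above every untreated NTC library, and every treated DKO library was below every treated NTC library. On the log2(TPM + 1) scale, which understates the change of genes near 1 TPM, *Tap1* rose by 2.66 in NTC cells (SE 0.102, adjusted p = 1.14e-09 by limma) and by 1.79 in DKO cells (SE 0.102, adjusted p = 8.4e-08). *Tap1* reached 1 TPM in 2 of 6 untreated libraries, so it passed the filter on low values (at least 1 TPM in 3 libraries) only through treated libraries; with no filter both calls held (adjusted p = 2.16e-08 and 8.5e-07). In NTC cells its change was ranked 2 from the highest among 11663 tested genes, and in DKO cells it was ranked 16.

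The untreated level of *Tap1* was higher in DKO cells by 0.30 (95% interval 0.08 to 0.52, adjusted p = 0.0344), and the treated level was lower by 0.57, a log2 difference of −0.57 (−0.79 to −0.35, adjusted p = 0.000586). The difference between the responses was −0.87 (95% interval −1.18 to −0.56), with an unadjusted p of 3.65e-05 and an adjusted p of 0.0709, which does not pass 0.05 over all genes. After removal of a trend on GC content and length it was −0.96 with an adjusted p of 0.0321, with that removal and a replicate block it had an adjusted p of 0.0429, and with a constant prior variance 0.0456. When single libraries were left out the adjusted p ran from 0.0622 to 0.229. The untreated call was lost without any single one of the 3 NTC libraries, and without DKO replicate 1 or 3 (adjusted p up to 0.134), and with a pseudocount of 0.1 that difference was 0.56. The treated difference was called under all 21 alternatives.

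*Tap2* encodes the other subunit of the pump, and its response was smaller. Untreated NTC libraries held 1.27, 0.903 and 1.02 TPM, and treated ones 3.18, 2.88 and 3.0 TPM. In DKO libraries it was at 0.978, 1.35 and 0.787 TPM and at 2.81, 2.48 and 2.55 TPM. Treated libraries were above untreated ones in both genotypes, and the untreated genotypes overlapped. *Tap2* rose by 0.97 in NTC cells (SE 0.119, adjusted p = 0.000312) and by 0.83 in DKO cells (SE 0.119, adjusted p = 0.00186). The log2 difference between the responses was −0.13 (95% interval −0.49 to 0.23, adjusted p = 0.769). DKO and NTC levels of *Tap2* differed by −0.02 without IFNγ (95% interval −0.28 to 0.23) and by −0.16 with it (−0.41 to 0.10, adjusted p = 0.314), and neither passed the test.

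The balance between the subunits was read within each library, which removes any scaling between libraries. The ratio of *Tap1* to *Tap2* in TPM was 0.548, 0.816 and 0.791 in untreated NTC libraries and 3.09, 3.25 and 3.66 with IFNγ. In DKO libraries it was 1.4, 0.695 and 1.46 untreated and 2.53, 2.4 and 2.45 treated. Treated DKO libraries were all below treated NTC libraries, by 0.43 on the log2 scale (a difference of −0.43, exact two-sided permutation p = 0.1, the smallest that 3 against 3 libraries allow). The untreated ratios overlapped, with a mean log2 difference of 0.67 (exact permutation p = 0.3). *Tap1* and *Tap2* lie next to each other on chromosome 17 of GRCm38, at 34187553 to 34197225 and 34203527 to 34216321 on the plus strand.

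Overlaps touch both subunits, as the libraries are unstranded and reads from opposite strands cannot be told apart. The first 212 bases of *Tap1* lie over an exon of *Psmb9*, an immunoproteasome subunit measured at 0.931 to 12.5 TPM. Exons of *Tap2* lie over 533 bases of *Gm15821*, listed at no more than 0.451 TPM, and 165 bases of *Gm20496*. The part of these reads in the values was not tested.

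*Tapbp*, the gene of tapasin, rose with IFNγ in both genotypes and was higher in DKO cells in either state. NTC libraries went from 7.91, 7.01 and 8.42 TPM to 33.0, 35.0 and 35.0 TPM with IFNγ, 4.41 times. DKO libraries held 10.6, 9.15 and 11.6 TPM untreated and 42.1, 42.1 and 40.2 TPM treated, 3.98 times. All DKO libraries lay above the NTC libraries of the same treatment. The rise was 2.01 in NTC cells (SE 0.0787, adjusted p = 1.36e-09, rank 18) and 1.90 in DKO cells (SE 0.0787, adjusted p = 3.68e-09, rank 12) on the log2(TPM + 1) scale. The responses differed by −0.11 (95% interval −0.35 to 0.13, adjusted p = 0.698).

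DKO cells had more *Tapbp* RNA by 0.38 without IFNγ (95% interval 0.21 to 0.55, adjusted p = 0.0021) and by 0.27 with it (0.10 to 0.44, adjusted p = 0.0148). The first call held under all 21 alternatives. The second was lost after removal of the GC and length trend (0.14, adjusted p = 0.187) and without NTC IFNγ replicate 1 (0.24, adjusted p = 0.0514). *Tapbp* has exons on 904 bases of the antisense *Gm19412*, and on 149 bases of *Zbtb22*, a gene on the same strand at 13.2 to 18.9 TPM.

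*Tapbpl*, which encodes the tapasin relative TAPBPR, changed less. It measured 2.01, 2.56 and 2.3 TPM in untreated NTC cells and 3.34, 4.58 and 3.55 TPM with IFNγ. In DKO cells they were at 3.2, 2.57 and 2.99 TPM and at 4.78, 5.35 and 4.13 TPM. Treated libraries were above untreated ones in each genotype, and treated DKO and NTC libraries overlapped. The estimate on the log2(TPM + 1) scale was 0.55 in both genotypes (SE 0.12), called in NTC cells (adjusted p = 0.016) and not in DKO cells (adjusted p = 0.0595), where it passed after removal of the GC and length trend (adjusted p = 0.0362) and without NTC IFNγ replicate 2 (adjusted p = 0.0358). The difference between the responses was 0.00275, with a 95% interval from −0.36 to 0.37 (adjusted p = 0.995). DKO minus NTC was 0.25 in untreated cells (adjusted p = 0.117) and 0.26 in treated cells (adjusted p = 0.101), and the latter passed with libraries scaled to the same total (0.33, adjusted p = 0.0449) and without NTC IFNγ replicate 2 (0.37, adjusted p = 0.0314). Without NTC IFNγ replicate 2 or NTC untreated replicate 3 the NTC response of *Tapbpl* was not called (adjusted p = 0.065 and 0.0538).

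Within libraries, the ratio of *Tapbp* to *Tapbpl* averaged 3.44 in untreated NTC and 3.57 in untreated DKO libraries, and 9.12 and 8.81 with IFNγ. The genotypes overlapped in both states (exact permutation p = 0.9 and 0.8). The ratio of *Tap1* to *Tapbp* behaved otherwise. It was 0.0879, 0.105 and 0.0958 in untreated NTC and 0.13, 0.103 and 0.0994 in untreated DKO libraries, and 0.299, 0.267 and 0.314 in treated NTC against 0.169, 0.141 and 0.156 in treated DKO libraries. With IFNγ the log2 difference was −0.92 (exact permutation p = 0.1, the smallest possible), with no overlap, and without IFNγ it was 0.19 (p = 0.3 by the same exact test), with overlap.

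**Figure D2:**
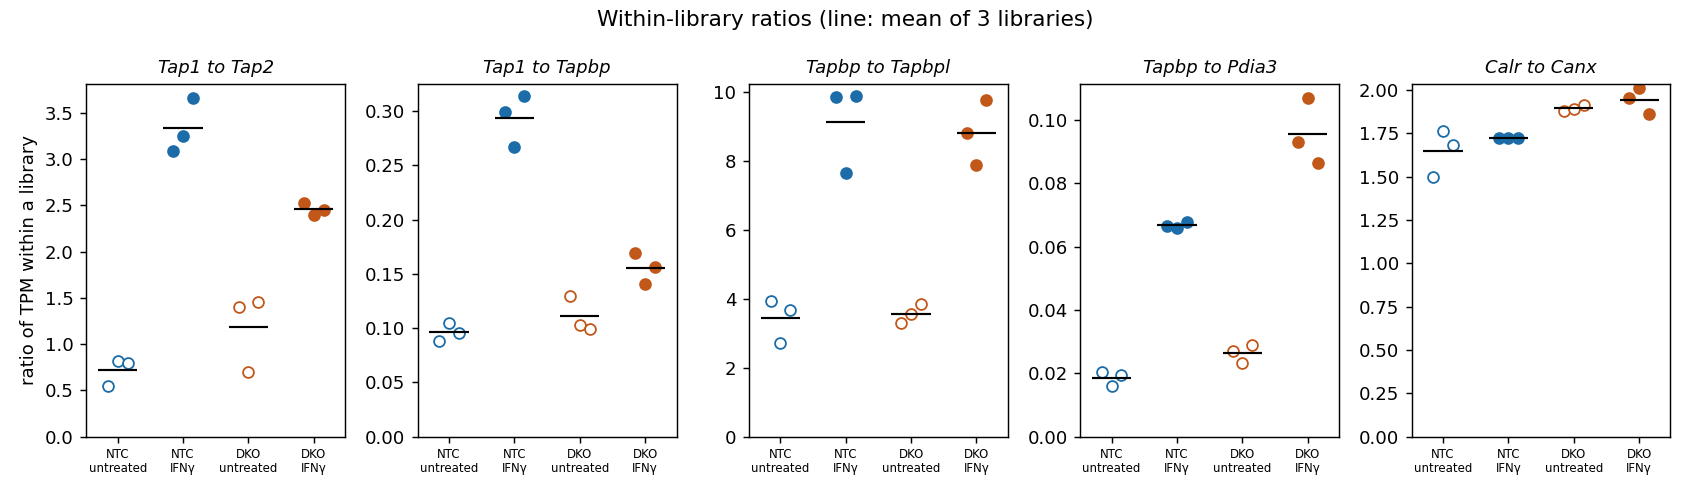
Ratio of TPM between pairs of genes within each library (vertical axis, from 0), by condition along the horizontal axis; points are libraries, open without and filled with IFNγ, blue for NTC and orange for DKO, and lines are means of 3. The *Tap1* to *Tapbp* ratio is between 0.267 and 0.314 in treated NTC libraries and between 0.141 and 0.169 in treated DKO libraries, while the *Tapbp* to *Tapbpl* ratio overlaps between genotypes.

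*Erap1*, the trimming enzyme of the ER, rose strongly in both genotypes. NTC libraries held 3.63, 3.71 and 2.73 TPM before treatment and 21.7, 22.1 and 22.9 TPM after it, 6.62 times. In DKO libraries it was at 4.77, 3.82 and 4.65 TPM untreated and at 19.0, 15.9 and 19.9 TPM treated, 4.14 times. As for *Tap1*, DKO libraries were all above NTC libraries before treatment and all below them after it. On the log2(TPM + 1) scale the rise was 2.42 in NTC cells (SE 0.105, adjusted p = 3.51e-09, rank 9) and 1.83 in DKO cells (SE 0.105, adjusted p = 9.32e-08, rank 13). The difference between the responses was −0.59 (95% interval −0.91 to −0.27), with an unadjusted p of 0.00151 and an adjusted p of 0.364; over the leave-one-out fits the adjusted p ran from 0.106 to 0.629.

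Both genotype differences of *Erap1* passed the test narrowly. The untreated level was higher in DKO cells by 0.32 (adjusted p = 0.0313), a call lost without the filter on low values (adjusted p = 0.0545), with only the 6 libraries of the comparison (0.0607), and without NTC untreated replicate 3 (0.21) or DKO untreated replicate 1 (0.27) or 3 (0.28). The treated level was lower, with a log2 difference of −0.28 (95% interval −0.50 to −0.05, adjusted p = 0.0479), but this call held in 5 of 21 alternatives and in 4 of the 12 fits with a library left out. Without DKO IFNγ replicate 2, the lowest of its group, the difference was −0.19 (adjusted p = 0.197). *Erap1* lies on chromosome 13 at 74639568 to 74693201, and 834 bases of its exons lie over *Cast* on the other strand, which was at 28.9 to 35.5 TPM.

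The ER chaperones were already abundant without IFNγ and moved little. *Calr*, the gene of calreticulin, measured 614, 725 and 693 TPM in NTC libraries without IFNγ and 751, 788 and 808 TPM after treatment. In DKO libraries it was at 765, 758 and 778 TPM and at 868, 819 and 882 TPM. *Calr* rose by 0.21 in NTC cells (SE 0.0542, adjusted p = 0.0275), a call lost under 9 of 21 alternatives, and its DKO estimate was 0.16 (adjusted p = 0.336). It was higher in untreated DKO cells by 0.18 (95% interval 0.07 to 0.30, adjusted p = 0.0177), but by 0.11 without NTC untreated replicate 1, where the call was lost (adjusted p = 0.0749), as it was without DKO untreated replicate 3 (adjusted p = 0.0581). The treated difference was 0.13 (adjusted p = 0.067), which passed under 7 of 21 alternatives. Among these it was 0.22 with libraries scaled to the same total (adjusted p = 0.00614), 0.15 with median-ratio scaling (adjusted p = 0.0427) and 0.16 after removal of the GC and length trend (adjusted p = 0.025, or 0.0222 with the replicate block as well). The others left out NTC untreated replicate 1 or 2 or DKO IFNγ replicate 2 (adjusted p = 0.0195, 0.0461 and 0.044).

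*Canx*, the gene of calnexin, passed none of the 5 tests. NTC libraries measured 409, 413 and 412 TPM untreated and 438, 458 and 471 TPM treated, and DKO libraries 407, 401 and 406 TPM and 445, 408 and 473 TPM. Treated values were above untreated values in each genotype, by estimates of 0.15 (95% interval 0.04 to 0.25, adjusted p = 0.0579) in NTC cells and 0.12 (0.02 to 0.23, adjusted p = 0.398) in DKO cells. The NTC estimate was 0.03 after removal of the GC and length trend. It passed the threshold with only the 6 libraries of the comparison (adjusted p = 0.0347). It also passed without NTC IFNγ replicate 1 (adjusted p = 0.043) or DKO IFNγ replicate 2 or 3 (adjusted p = 0.0168 and 0.0252). The genotypes differed by −0.02 and −0.04 on the log2 scale, without and with IFNγ.

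*Pdia3*, which encodes ERp57, measured 389, 437 and 432 TPM in NTC libraries without IFNγ, and 494, 532 and 517 TPM in those treated. In DKO libraries it was at 390, 392 and 400 TPM and at 452, 394 and 466 TPM, with overlap between treated and untreated. *Pdia3* rose in NTC cells by 0.30 (SE 0.0605, adjusted p = 0.0126), a call lost without NTC IFNγ replicate 2 (adjusted p = 0.0543), and its DKO estimate was 0.15 (adjusted p = 0.452). The difference between the responses was −0.15 (95% interval −0.34 to 0.03, adjusted p = 0.497). With IFNγ *Pdia3* was lower in DKO cells, at a log2 difference of −0.24 (−0.37 to −0.11, adjusted p = 0.00643), and this call held under all 21 alternatives, with −0.15 when libraries were scaled to the same total. Without IFNγ the difference was −0.09 (adjusted p = 0.284).

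Calreticulin and ERp57 act beside tapasin in the complex, and their estimates in treated DKO cells had opposite signs, of which that of *Pdia3* passed the test. The ratio of *Calr* to *Canx* was 1.5, 1.76 and 1.68 in untreated NTC and 1.88, 1.89 and 1.91 in untreated DKO libraries, and with IFNγ it was 1.72 in each NTC library and 1.95, 2.01 and 1.86 in DKO libraries. DKO cells had the higher ratio in both states, by 0.21 and 0.18 on the log2 scale (exact permutation p = 0.1 each, the smallest possible). The ratio of *Tapbp* to *Pdia3* averaged 0.0186 in untreated NTC and 0.0264 in untreated DKO libraries, and 0.0667 and 0.0956 with IFNγ, without overlap between genotypes (log2 difference 0.51 in both states, exact permutation p = 0.1).

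*Nlrc5*, the class I transactivator, was near 0 before treatment and induced in both genotypes. It was listed at 0 in 1 untreated NTC library and at 0.147 and 0.0927 TPM in the others, and at 4.32, 4.12 and 4.66 TPM with IFNγ. DKO libraries held 0.188, 0.0897 and 0.154 TPM untreated and 3.78, 3.47 and 3.57 TPM treated. Treated DKO libraries were all below treated NTC libraries. The rise was 2.31 in NTC cells (SE 0.105, adjusted p = 5.05e-09, rank 11) and 2.01 in DKO cells (SE 0.105, adjusted p = 3.84e-08, rank 7) on the log2(TPM + 1) scale; these estimates depend on the pseudocount and were 4.73 and 3.95 with a pseudocount of 0.1. *Nlrc5* reached 1 TPM in 0 of 6 untreated libraries, so it passed the filter only through the treated libraries where it is high; with no filter both calls held (adjusted p = 1.25e-08 and 5.95e-08). No fold is given for NTC cells.

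The treated level of *Nlrc5* differed by −0.22 between DKO and NTC cells (95% interval −0.44 to 0.01, adjusted p = 0.108). It passed after removal of the GC and length trend (−0.31, adjusted p = 0.0268) and with a constant prior variance (adjusted p = 0.0165). The difference between the responses was −0.30 (−0.62 to 0.02, adjusted p = 0.445), and −0.78 with a pseudocount of 0.1 (adjusted p = 0.51). *Nlrc5* lies on chromosome 8 at 94434356 to 94527272, and 78 bases of its exons lie over *9330175E14Rik* on the other strand.

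**Figure D3:**
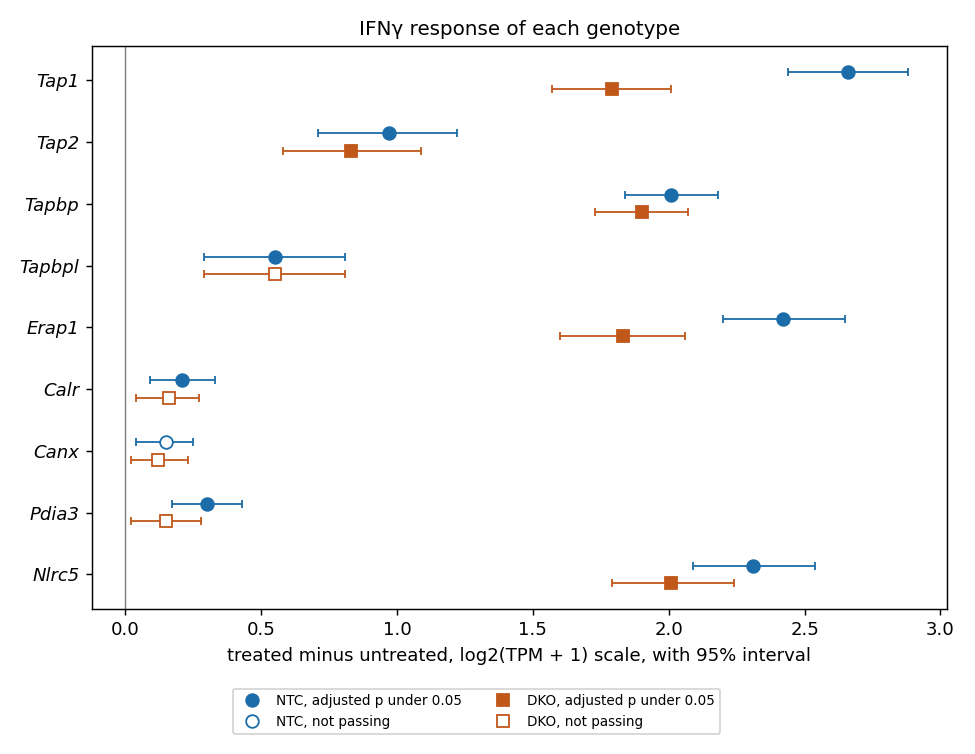
Treated minus untreated difference of each gene on the log2(TPM + 1) scale (horizontal axis) in NTC cells (blue circles) and DKO cells (orange squares), with 95% intervals; filled symbols have an adjusted p under 0.05 over 11663 genes. *Tap1* is at 2.66 in NTC and 1.79 in DKO cells, *Tapbp* at 2.01 and 1.90, and *Calr*, *Canx* and *Pdia3* lie between 0.12 and 0.30.

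The 9 genes were chosen with earlier results of these data known, so the shares over all genes given here do not test their counts. Counted together, 8 of the 9 genes rose in NTC cells, against 7.31% of all tested genes called higher. In DKO cells 5 of 9 rose (*Tap1*, *Tap2*, *Tapbp*, *Erap1* and *Nlrc5*), against 0.677% of all tested genes. *Tap1* and *Nlrc5* passed the filter only through treated libraries, so these counts of 9 are a description only. Of the other 7 genes 6 rose in NTC and 3 in DKO cells, with a median estimate of 0.55 in each, beside 0.02 and 0.01 over all genes tested. The DKO count of 5 was 6, with *Tapbpl*, after removal of the GC and length trend and without NTC IFNγ replicate 2. Without NTC IFNγ replicate 2 the NTC count was 5, as *Tapbpl*, *Calr* and *Pdia3* were lost. In the test of the difference between responses 0 of 9 were called by limma, and 2 (*Tap1* and *Erap1*) had an unadjusted p under 0.05; over all tested genes 0.0343% were called and 1340 of 11663 had an unadjusted p under 0.05. Of all NTC calls 60.5% were higher, a share that was 45.1% after scaling libraries to 1 total and 48.8% after median-ratio scaling.

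Between genotypes without IFNγ, 4 of 9 were higher in DKO cells (*Tap1*, *Tapbp*, *Erap1* and *Calr*), against 17% of tested genes called higher, and 0 were lower, against 19.4% called lower; by unadjusted p under 0.05 these counts were the same. With IFNγ 1 was higher (*Tapbp*; 19.5% of tested genes were called higher) and 3 were lower (*Tap1*, *Erap1* and *Pdia3*; 23.9% called lower). The treated counts were near the background. Without IFNγ 36.4% of tested genes were called in either direction, and 4 of 9 was near that share too. *Tap1* and *Nlrc5* passed the filter only through treated libraries, so these counts of 9 are a description only. Of the other 7 genes 3 were higher and 0 lower without IFNγ, and 1 was higher and 2 lower with it. Of the calls over all tested genes 46.7% were higher without IFNγ and 44.9% with it. Listed genes summed to a lower total in every DKO library than in every NTC library. Libraries scaled to the same total gave shares of 60.6% and 65.2%. The untreated count was 2 without NTC untreated replicate 1 or 3 or DKO untreated replicate 1, and 1 without DKO untreated replicate 3, and it was 2 with only the 6 libraries of the comparison, where *Tap1* did not reach the filter. The treated count was 2 without NTC IFNγ replicate 1.

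**Figure D4:**
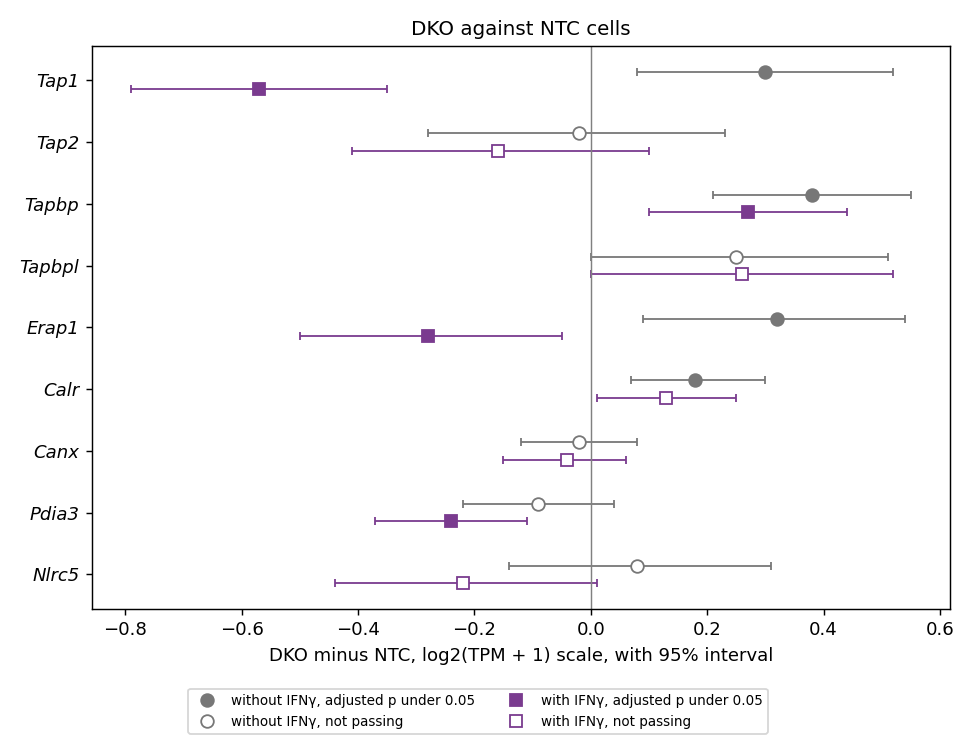
DKO minus NTC difference of each gene on the log2(TPM + 1) scale (horizontal axis) without IFNγ (grey circles) and with IFNγ (purple squares), with 95% intervals; filled symbols have an adjusted p under 0.05. *Tap1* (0.30 and −0.57) and *Erap1* (0.32 and −0.28) lie on opposite sides of 0, *Tapbp* (0.38 and 0.27) lies above 0 in both states, and *Canx* lies near 0 in both.

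As a description, the amount of RNA added by IFNγ in DKO cells was set against that added in NTC cells, in TPM. For *Tap1* it was 56.8% ± 4.95 (SE) of the NTC amount, 5.29 against 9.32 TPM. It was 73.3% ± 6.73 for *Erap1*, 80.3% ± 11.4 for *Tap2* and 80.9% ± 3.8 for *Nlrc5*. *Tapbp* gained 31.1 TPM in DKO and 26.6 TPM in NTC cells, 117% ± 5.01. For *Tapbpl* (119% ± 41.5), *Calr* (85.2% ± 35.6) and *Pdia3* (45.2% ± 25) the error was too wide to place the share.

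Among 11 tested genes of 12 in a list of other class I pathway genes, 10 rose in NTC and 9 in DKO cells. Over all tested genes 7.31% and 0.677% were called higher. The medians of the 11 were 1.65 and 1.37. This list and those below were also chosen with earlier results of these data known, so their counts are a description only. The genes that rose include *Psmb8*, which has a value of 0 in each of 6 untreated libraries and passed the filter only through treated ones. *B2m*, the light chain of class I, rose by 2.58 and 1.95, *Psmb9* by 2.55 and 1.46, the proteasome activator gene *Psme2* by 2.49 and 2.20, and the immunoproteasome subunit gene *Psmb10* by 2.43 and 2.05. The difference between responses was called by limma for *B2m* (−0.63, adjusted p = 0.0256) and *Psmb9* (−1.09, adjusted p = 0.0256), 2 of 11, beside 0.0343% of all tested genes. Neither call held without NTC untreated replicate 1, 2 or 3, DKO untreated replicate 2 or 3, or DKO IFNγ replicate 1. In each of those fits 0 of all tested genes were called. Of these 11 genes 8, *Psmb8* among them, were lower in treated DKO cells and 0 higher, with a median of −0.45. Over all tested genes 23.9% were called lower and 19.5% higher. Of the 9 loading genes 1 was higher and 3 were lower, with a median of −0.16. Without IFNγ 2 of the 11 were higher and 4 lower, beside 17% and 19.4% of all tested genes. In treated DKO libraries *B2m* was at 1060, 933 and 1100 TPM, and in treated NTC libraries at 1790, 1920 and 1880 TPM. Treated NTC libraries held 12.5, 12.1 and 9.83 TPM of *Psmb9*, and treated DKO libraries 5.34, 4.56 and 4.04 TPM.

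Of 12 other ER folding genes 5 rose in NTC cells, beside 7.31% of all tested genes called higher. In DKO cells 0 were called, where 0.677% of all tested genes were called higher. There 12 of 12 estimates were above 0, with a median of 0.11. *Hsp90b1*, an ER chaperone, rose by 0.27 in NTC cells (adjusted p = 0.0143) and *Pdia6*, a disulfide isomerase, by 0.22 (adjusted p = 0.0161), sizes close to those of *Calr* and *Pdia3*. *Pdia4* rose by 0.21 and the co-chaperone gene *Dnajb11* by 0.17. In DKO cells 6 of the 12 were higher and 1 lower without IFNγ, beside 17% and 19.4% of all tested genes. With IFNγ 6 were higher and 0 lower, beside 19.5% and 23.9%.

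Among 8 other peptidases that trim or destroy peptides, 3 rose in NTC cells and 0 were called in DKO cells. Over all tested genes 7.31% and 0.677% were called higher, so 0 of 8 in DKO cells is near the background. *Lnpep*, which encodes an aminopeptidase related to ERAP1, rose by 0.33 (adjusted p = 0.00623), *Lap3* by 0.23 and *Tpp2* by 0.22, far below the 2.42 of *Erap1*. Without IFNγ 5 of 8 were higher in DKO cells, beside 17% of all tested genes. With IFNγ 4 were higher and 1 lower, beside 19.5% and 23.9%.

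*Irf1*, a transcription factor of the IFNγ pathway, was named from a list of factors around the class I transactivator. It rose by 1.14 in NTC and 0.93 in DKO cells on the log2(TPM + 1) scale, and was higher in DKO cells in the untreated state (0.53, adjusted p = 7.83e-05) and the treated one (0.33, adjusted p = 0.00235). With IFNγ, NTC libraries held 19.6, 18.5 and 19.7 TPM of it, DKO libraries 24.3, 24.8 and 24.3 TPM. In the subfamily of transporters to which TAP belongs, *Abcb8*, *Abcb6* and *Abcb10* did not pass the test with IFNγ in NTC cells, and had NTC estimates of −0.02, 0.15 and 0.02 on the log2 scale (adjusted p = 0.903, 0.15 and 0.887). *Abcb10* was higher in DKO cells, by 0.38 without IFNγ (adjusted p = 0.00156) and by 0.36 in treated cells (adjusted p = 0.00194).

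The genes most like each member over the 12 libraries were named by Pearson's r of log2(TPM + 1), among 11654 tested genes. The libraries fall into 4 conditions, so these r values mostly reflect differences between conditions and carry no p. *Tap1* was most like *Irgm2* (0.993), *H2-T22* (0.993) and *Psme1* (0.988), *Erap1* like *Psme1* (0.996), *Irgm2* (0.992) and *Psme2* (0.989), and *Nlrc5* like *Psme2* (0.998), *Irgm2* (0.997) and *Tgtp1* (0.996). *Tapbp* was most like *Psmb10* (0.992), *Lgals3bp* (0.992) and *Parp14* (0.990), and *Tap2* like *Zbp1* (0.980), *Bst2* (0.977) and *Itm2b* (0.974). *Tapbpl* was most like *Il17rc* (0.951), *Aimp2* (0.948) and *Mov10* (0.923). The chaperones had other neighbours: *Calr* had *Pdia6* (0.972), *Snap29* (0.961) and *AI597468* (0.951), *Canx* had *Eci1* (0.951), *Stt3a* (0.940) and *Fmr1* (0.940), and *Pdia3* had *Magt1* (0.955), *Mrpl45* (0.953) and *Anxa4* (0.952). Among the members themselves r was 0.99 for each pair of *Tap1*, *Erap1* and *Nlrc5*, and 0.36 between *Calr* and *Pdia3*.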

How the data were processed

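Poly(A) RNA of 12 B16-F10 libraries (unstranded, paired reads) was quantified by the authors with RSEM 1.2.4 through Bowtie, with TopHat 20.8b for unaligned reads, against a merged mouse annotation and mm10 (GRCm38), per the labels and the methods of the study. The deposited values are TPM, although they are named counts; listed genes sum to between 805782 and 874612 TPM per library, scaling between libraries is not stated, and depth is unknown. The authors' TPM were put on a log2(TPM + 1) scale here. The 11663 genes reaching 1 TPM in 3 libraries or more, all 9 members among them, were fitted with limma 3.58.1 (R 4.3.3), with 1 mean per condition over 12 libraries and a prior variance trend, for 5 comparisons. P-values were adjusted by Benjamini-Hochberg over all tested genes, with a threshold of 0.05. Ratios within libraries were tested by exact two-sided permutation of 3 against 3 libraries. The code was tested on simulated data. Members and lists were chosen with earlier results of these data known. Beside all members, up to 4 genes per list were named: those called in NTC cells with the largest IFNγ change, or the most abundant where none was called. Some genes that this rule names, and the counts of their lists, are not reported here. Alternatives were a pseudocount of 0.1, no filter, scaling to the same total or by median ratios, removal of a trend on GC content and length (a spline with 4 degrees of freedom), a replicate block, both together, a constant prior variance, only the 6 libraries of a comparison, and each library left out. Coordinates are GENCODE M21 (GRCm38). Promoters are from RefSeq (GRCm38.p6). Other steps ran in Python 3.11.15 with matplotlib 3.10.9, numpy 2.4.6 and pandas 2.3.3.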

Additional observations from a re-analysis of the deposited data

Results flagged for a closer look

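*Tap1* and *Erap1* were singled out because the DKO minus NTC difference pointed in opposite directions in the 2 states: every untreated DKO library was above every untreated NTC library, and every treated DKO library was below every treated NTC library. The difference between the IFNγ responses was −0.87 for *Tap1* (limma adjusted p = 0.0709) and −0.59 for *Erap1* (adjusted p = 0.364), and neither passed 0.05 over all genes tested.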

How the results depend on the processing

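Over 45 results of single genes, 846 of 934 values under an alternative kept direction and call. The cause of the changes was not tested. This share includes fits that left out a library of a group outside the comparison, where the difference itself cannot change. It is therefore not a measure of stability. For the IFNγ response of NTC cells, all genes called numbered 1411, against 897 with no filter on low values, 737 with a constant prior variance, 519 after removal of the GC and length trend and 407 with that removal and a replicate block. Leaving out each library gave 317 to 2023 genes and 5 to 9 members. For the difference between responses, 4 genes were called, against 10 with no filter, 2 with a replicate block and 0 to 7 with a library left out; the member count of 0 became 1 (*Tap1*) after removal of the GC and length trend, with a replicate block and that removal, and with a constant prior variance. Between genotypes, members called ranged from 1 to 4 without IFNγ and from 2 to 5 with it over left-out libraries, and were 2 without IFNγ in the 6 libraries alone, where *Tap1* and *Nlrc5* were under the filter.

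Signs turned only for values near 0. The difference between responses became −0.03 for *Tapbpl* (pseudocount 0.1, GC and length trend removed, and that with the block) and, for *Canx*, 0.01 (same total) and 0.07 (GC and length trend removed, without and with the block). Leaving out libraries gave −0.07 to 0.11 for *Tapbpl*, −0.10 to 0.02 for *Calr* and −0.07 to 0.03 for *Canx*. Without IFNγ, scaling to the same total gave 0.0039 for *Tap2* and 0.03 for *Canx*, and left-out libraries −0.13 to 0.07 for *Tap2*. With IFNγ, *Canx* was 0.04 (same total), 0.07 (GC and length trend removed, without and with the block) and −0.09 to 0.01 over left-out libraries. The *Tapbp* to *Tapbpl* ratio differed between genotypes by −0.09 to 0.17 without and −0.17 to 0.03 with IFNγ.

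Replicate numbers did not pair the libraries: same-numbered libraries of different groups correlated between −0.18 and 0.18, with 4 of 18 pairs above 0.1. In 4 of the 18 comparisons, the same-numbered library was the best correlated of those in the other group. With the replicate block alone, the one member call lost was that of *Erap1* with IFNγ (adjusted p = 0.0583). The depth of each library behind its TPM is unknown, and genes near 1 TPM or below, *Nlrc5*, *Tap1* and *Tap2* without IFNγ, depend most on the pseudocount.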
